A study of Homo sapiens with 9 samples.

Results

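The genes described here are 46 molecular chaperones and chaperone regulators of the cytosol, the endoplasmic reticulum (ER) and the mitochondria, out of 41041 genes in the expression table. They were listed by function, and the rule that picks them uses no measured value: 15 cytosolic heat shock genes, 3 small heat shock genes, 6 subunits of the cytosolic chaperonin, 4 mitochondrial chaperones and 18 genes of ER folding and ER-associated degradation (ERAD). Poly(A) RNA was sequenced from SW480, an established human colorectal cancer line, and each group held 3 biological replicates. All 9 libraries came from cells kept for 48 h at 1% oxygen. The control group received no compound, and the SFN group received 25 µM sulforaphane, an isothiocyanate of cruciferous vegetables. The SFN+5-FU group received sulforaphane with 5-fluorouracil, a pyrimidine analogue used in chemotherapy. The doses of the combined treatment were not given in the sources used here, and cells in normal oxygen or on 5-fluorouracil alone were not analysed here. Values are FPKM, fragments scaled by gene length and by library size.

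Chaperones hold unfolded proteins, help them to fold or pass them on for degradation. In the cytosol, HSP70 proteins bind short stretches of unfolded chain together with J-domain partners, HSP90 takes over proteins at a later stage, and the transcription factor HSF1 raises many of these genes when unfolded protein accumulates. The ring-shaped chaperonin TRiC, also called CCT, encloses actin, tubulin and other cytosolic proteins. In mitochondria, HSPA9, an HSP70 protein, takes part in protein import, and the chamber made by HSPD1 and HSPE1 folds imported proteins. In the ER, HSPA5 (BiP), lectin chaperones and disulfide isomerases fold secreted and membrane proteins, and the unfolded protein response, through XBP1, ATF6 and ATF4, controls their genes and those of ERAD.

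All 46 genes were found in the table. CRYAB, αB-crystallin, was between 0.01 and 0.09 FPKM in the 9 libraries and fell below the filter of a mean of 1 FPKM. The other 45 were tested, so the counts below leave CRYAB out. In the controls, 1.11% of all FPKM belonged to the 46 genes in each library, against 1.26% to 1.42% in the 6 treated libraries. The library totals were between 259184 and 272235 FPKM, and the number of fragments behind them is unknown, so no counting interval can be given. Differences are log2 fold changes of FPKM + 1 from limma, fitted over all 12662 genes with a mean of at least 1 FPKM. Adjusted p-values are Benjamini-Hochberg values over those genes, and the words rose and fell mark genes with an adjusted p below 0.05.

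One library stood apart from its label. Across the tested genes, the library labelled SFN replicate 2 had a Pearson correlation on the log2 scale of 0.993 with each SFN+5-FU library, of 0.963 with SFN replicate 1 and of 0.968 with SFN replicate 3. SFN replicates 1 and 3 correlated at 0.990 with each other. These are correlations across genes, which are not independent replicates. For 39 of the 45 tested chaperone genes (86.7%), SFN replicate 2 was nearer to the SFN+5-FU mean than to the mean of the other SFN libraries, as for 82.6% of all tested genes. Each SFN result is therefore given with this library, and again without it where that matters. The summed level of 7 colorectal epithelial markers was 2550 to 2590 FPKM in the controls, 1770 to 2380 with SFN and 1710 to 1720 with SFN+5-FU, and all 7 had a mean above 1 FPKM in each group except VIL1, at 0.79 to 0.86 FPKM in the SFN+5-FU libraries. The epithelial sum was mostly KRT8, KRT18 and KRT19. Of the 7, only EPCAM overlapped between the controls (125 to 133 FPKM) and SFN+5-FU (114 to 126), and the others were lower. The sum of 4 leukocyte markers was 3.01 to 3.52, 4.11 to 9.05 and 6.35 to 10.0 FPKM, with PTPRC at 0 in every library. These markers went different ways: CD68 was 0.48 to 0.61 FPKM in the controls and 5.59 to 8.96 with SFN+5-FU. LYZ was 2.32 to 2.87 and 0.76 to 1.80 FPKM, and CD3E was at most 0.09 FPKM. Fibroblast markers summed to 0.58 to 2.03 FPKM, and endothelial markers to 0.24 to 0.92 FPKM with CDH5 at 0 throughout. The part of these shifts in the results below was not tested. All libraries came from the same cell line, so these sums describe marker genes and do not count other cell types. In bulk RNA, fewer cells expressing a gene and less RNA per cell cannot be told apart.

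With SFN, 21 of the 45 chaperone genes rose and 5 fell, where 27.5% of all tested genes rose and 22.5% fell. All 6 chaperonin subunits and all 4 mitochondrial chaperones rose, as did 8 of 15 cytosolic heat shock genes, with no decrease in these groups. Among the chaperonin and mitochondrial genes, the CCT4 call was lost in 3 of 20 alternative fits and the TRAP1 call in 12. Of the 18 ER genes 3 rose and 4 fell, and of the 2 tested small heat shock genes 1 fell. In all, 57.8% of the chaperone genes were called against 50.0% of all tested genes, and among the ER genes the share, 38.9%, was below that of all genes. The median log2 difference was 0.48 for the chaperonin subunits, 0.52 for the mitochondrial chaperones, 0.28 for the cytosolic heat shock genes and 0.004 for the ER genes, beside 0.05 for all tested genes. Without SFN replicate 2, 23 rose and 8 fell, against 30.0% and 26.9% of all tested genes. All 6 chaperonin subunits and all 4 mitochondrial chaperones were again called higher, with 10 cytosolic genes higher and 1 lower, and 3 ER genes higher and 6 lower. The 1 cytosolic gene lower in that fit was DNAJB1. After quantile scaling of the libraries, 18 genes rose and 10 fell with SFN, where 26.8% and 23.6% of all tested genes did.

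With SFN+5-FU, 25 of the 45 rose and 8 fell, where 38.3% of all tested genes rose and 28.0% fell. The chaperonin subunits rose in 6 of 6 cases, the mitochondrial chaperones in 3 of 4 and the cytosolic heat shock genes in 9 of 15, with 2 of the latter lower. Of the 18 ER genes 7 rose and 5 fell, and 1 small heat shock gene fell. The median log2 differences were 0.44, 0.42, 0.32 and 0.07 for the chaperonin, mitochondrial, cytosolic and ER groups, beside 0.10 for all tested genes. Both comparisons use the same 3 control libraries, so they are not independent of each other. In all, 73.3% of the chaperone genes and 66.2% of all tested genes were called. Among the ER genes the share was 66.7%.

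**Figure D1:**
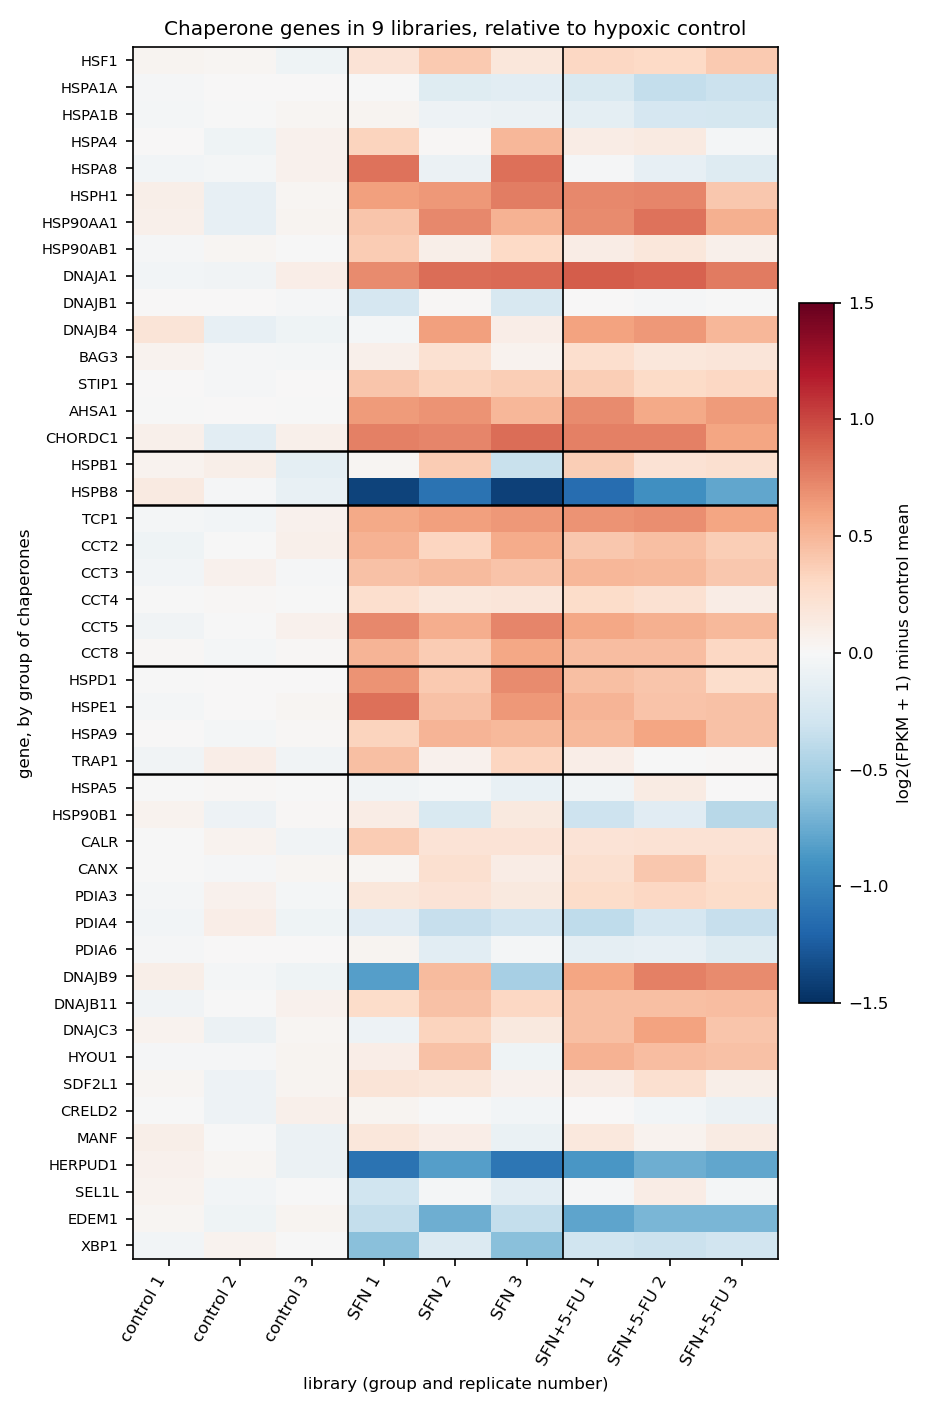
Each tested chaperone gene in each of the 9 libraries, as log2(FPKM + 1) minus the mean of the control libraries, with genes in rows by group and libraries in columns. The chaperonin and mitochondrial rows are mostly above the controls in the treated libraries, while HSPB8, HERPUD1, EDEM1, XBP1 and PDIA4 are below them.

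**Figure D2:**
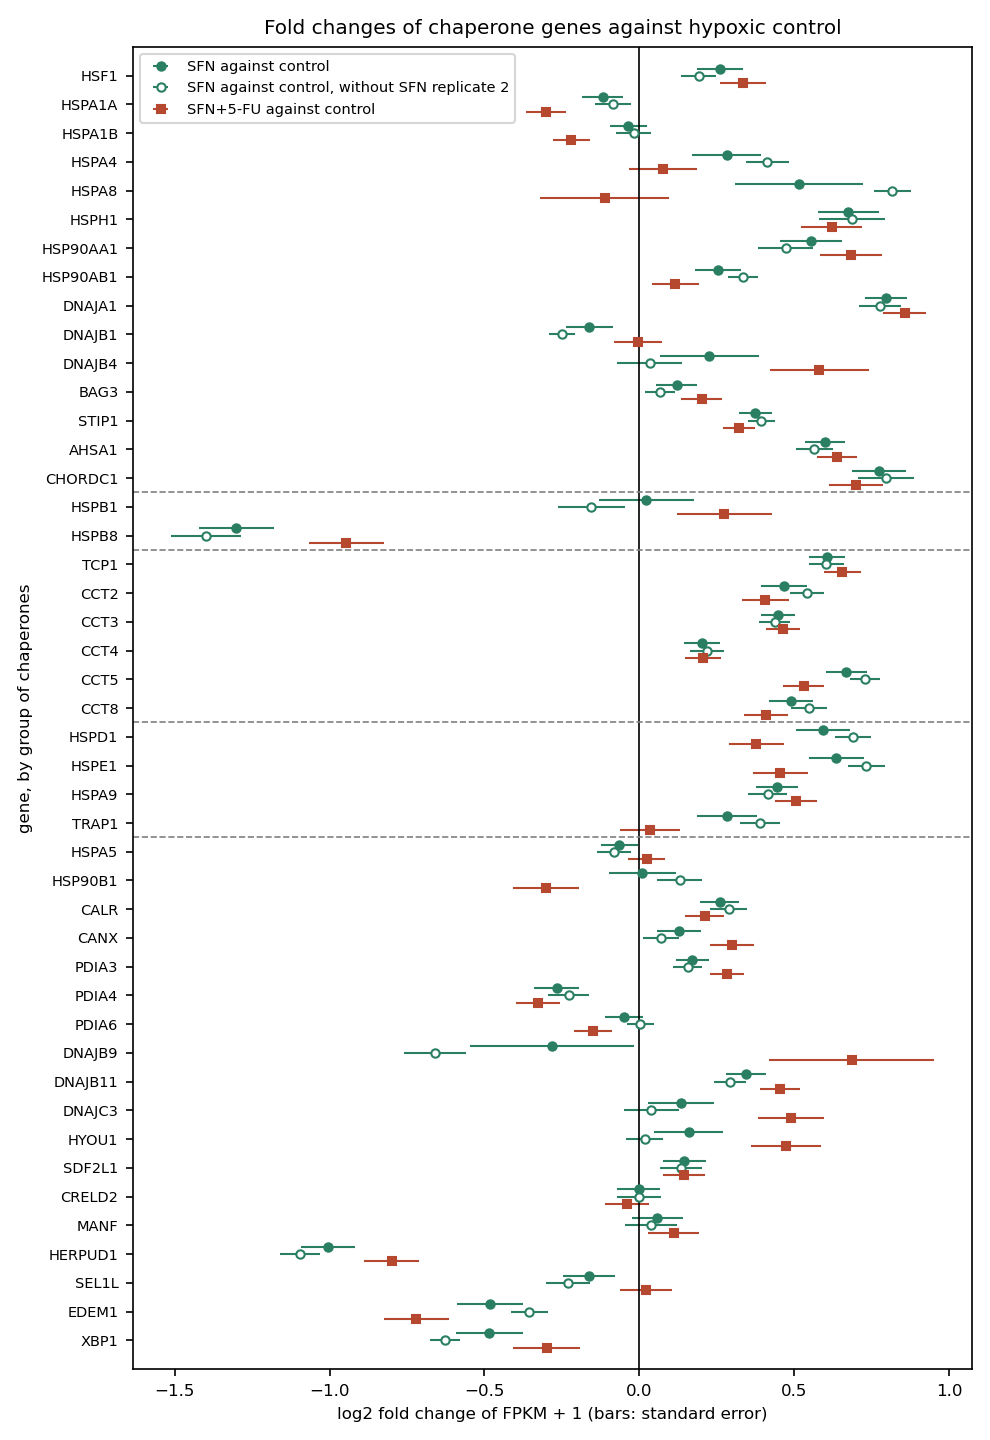
Log2 difference of FPKM + 1 against control for each tested chaperone gene, with SFN, with SFN without replicate 2 and with SFN+5-FU, and bars of 1 SE from limma (n = 3 libraries a group, 2 for SFN without replicate 2). HSPA8 and DNAJB9 have opposite signs for SFN without replicate 2 and for SFN+5-FU.

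The RefSeq sequences around the gene starts (GRCh38.p14) were searched for fixed letter forms of elements known for the heat shock and unfolded protein responses. Windows of 300 bases, from 250 before to 50 after each listed start, were found for 43 of the 46 genes, some with several starts. The heat shock element was searched as the letters GAA, TTC and GAA with any 2 bases between them, the ER stress element as CCAAT and CCACG with any 9 bases between them, and the XBP1-type unfolded protein response element as TGACGTGG, each on both strands. The heat shock element was in windows of 6 of the 43 genes (14.0%; HSPA8, HSP90AA1, HSP90AB1, DNAJA1, CHORDC1 and HSPD1), against 0.608% of all 27305 genes with a window. The ER stress element was in 7 (16.3%; HSPA5, HSP90B1, CALR, CANX, PDIA6, CRELD2 and XBP1), against 0.0916% of genes. The third element was in 1 (HYOU1, 2.33%), against 0.927%. No gene held more than 1 of the searched kinds, so matches to different elements did not overlap. Other forms of these elements were not searched, in HYOU1 or in any other gene. The lists are therefore not a full count of such elements. Matches of the heat shock element on the 2 strands overlapped each other in CHORDC1 and HSPD1. A match is a description of the letters, and no match says only that these letters are not in the window.

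Sequences of 6 of these genes are shown because their values below differ in kind: HSPA8, HSP90AA1 and CHORDC1 with the heat shock element, HSPA5 and XBP1 with the ER stress element, and HYOU1 with the third element. Each is the 250 bases before a listed start, 5′ to 3′ on the gene's own strand, with the matched letters in capitals. All 6 lie on the minus strand. Those with the heat shock element are HSPA8 (ENSG00000109971) at chr11:123062137-123062386, HSP90AA1 (ENSG00000080824) at chr14:102087045-102087294 and CHORDC1 (ENSG00000110172) at chr11:90223050-90223299. The others are HSPA5 (ENSG00000044574) at chr9:125241344-125241593, XBP1 (ENSG00000100219) at chr22:28800570-28800819 and HYOU1 (ENSG00000149428) at chr11:119057206-119057455.
HSPA8: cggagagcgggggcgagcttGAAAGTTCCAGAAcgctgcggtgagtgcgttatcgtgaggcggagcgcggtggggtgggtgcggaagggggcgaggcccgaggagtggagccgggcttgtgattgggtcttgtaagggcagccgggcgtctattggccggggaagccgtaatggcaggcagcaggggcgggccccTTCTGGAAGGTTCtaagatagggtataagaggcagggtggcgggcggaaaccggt
HSP90AA1: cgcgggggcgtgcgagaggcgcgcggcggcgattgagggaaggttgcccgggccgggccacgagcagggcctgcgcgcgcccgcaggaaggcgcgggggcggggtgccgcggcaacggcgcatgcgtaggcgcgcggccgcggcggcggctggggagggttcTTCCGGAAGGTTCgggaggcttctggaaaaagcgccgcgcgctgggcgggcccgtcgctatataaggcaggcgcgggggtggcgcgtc
CHORDC1: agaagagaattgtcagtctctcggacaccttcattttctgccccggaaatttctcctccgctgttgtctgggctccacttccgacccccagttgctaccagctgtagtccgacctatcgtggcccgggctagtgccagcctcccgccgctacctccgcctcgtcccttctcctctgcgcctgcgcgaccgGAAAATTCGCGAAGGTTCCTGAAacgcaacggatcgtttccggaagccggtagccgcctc
HSPA5: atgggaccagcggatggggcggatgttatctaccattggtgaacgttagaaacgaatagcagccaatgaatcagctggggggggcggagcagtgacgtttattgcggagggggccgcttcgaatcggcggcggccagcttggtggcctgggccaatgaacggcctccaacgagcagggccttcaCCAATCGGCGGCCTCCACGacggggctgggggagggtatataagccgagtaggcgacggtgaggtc
XBP1: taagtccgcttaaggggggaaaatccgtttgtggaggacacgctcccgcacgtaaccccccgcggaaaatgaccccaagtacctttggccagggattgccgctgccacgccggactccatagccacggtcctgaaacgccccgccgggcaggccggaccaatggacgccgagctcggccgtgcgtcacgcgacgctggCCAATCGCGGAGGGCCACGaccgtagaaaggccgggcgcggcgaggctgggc
HYOU1: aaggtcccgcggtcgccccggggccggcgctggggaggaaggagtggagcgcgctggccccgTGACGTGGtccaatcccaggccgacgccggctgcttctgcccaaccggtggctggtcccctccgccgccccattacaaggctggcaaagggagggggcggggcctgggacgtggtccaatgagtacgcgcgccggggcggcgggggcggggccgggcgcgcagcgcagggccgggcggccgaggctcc
HSPA8 has 2 matches, and in CHORDC1 the 3 matches overlap as one run. In DNAJA1 the match GAACTTTCCAGAA begins 4 bases after the start and is therefore shown alone.

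HSF1, the regulator of the heat shock genes, was measured at 14.3, 14.1 and 13.2 FPKM in the control libraries, 16.2, 18.6 and 15.8 in SFN replicates 1, 2 and 3, and 17.4, 17.3 and 18.6 in the SFN+5-FU libraries. The 6 treated libraries were all above the 3 controls. The log2 difference from control was 0.26 (SE 0.074, adjusted p = 0.0169) with SFN and 0.33 (SE 0.074, adjusted p = 0.00345) with SFN+5-FU. The SFN call was lost without control replicate 3 (adjusted p = 0.0586) and after quantile scaling (adjusted p = 0.0588). FPKM gives the amount of HSF1 mRNA and not the activity of the protein.

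The stress-inducible HSP70 genes HSPA1A and HSPA1B fell with SFN+5-FU and were not called with SFN. HSPA1A was at 55.04, 55.9 and 55.7 FPKM in the control libraries, 55.2, 48.7 and 49.7 in SFN replicates 1, 2 and 3, and 47.3, 43.3 and 44.1 in the SFN+5-FU libraries. The SFN+5-FU libraries were below every control, and SFN replicate 1 lay among the controls. Against control, the fit gave -0.12 (SE 0.065, adjusted p = 0.156) with SFN and -0.30 (SE 0.065, adjusted p = 0.00291) with SFN+5-FU. HSPA1B gave -0.04 (SE 0.06, adjusted p = 0.648) and -0.22 (SE 0.06, adjusted p = 0.0103). Under the GC and length correction the latter was -0.08 and was not called (adjusted p = 0.274). The HSPA1A decrease with SFN was called in 3 of the 20 alternatives, 1 of them without SFN replicate 1 (adjusted p = 0.0429). These genes are near-identical copies, so the division of reads between them is uncertain. Their sum was 106.6 ± 1.31 FPKM in the controls, 101.0 ± 6.01 with SFN and 88.6 ± 4.02 with SFN+5-FU (SD, n = 3 each). The exact two-sided permutation p of the sum against control was 0.4 with SFN and 0.1 with SFN+5-FU. Adjusted over 24 tests of sums and ratios, these were 0.457 and 0.218. An unadjusted 0.1 is the smallest value that 3 libraries against 3 allow.

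HSPA8, the constitutive cytosolic HSP70, split the SFN group. It was at 317, 319.9 and 341 FPKM in the control libraries, 573, 307 and 577 in SFN replicates 1, 2 and 3, and 321, 298 and 286 in the SFN+5-FU libraries. Both SFN replicates 1 and 3 stood above the other 7 libraries, which lay between 286 and 341 FPKM. The log2 difference from control with SFN was 0.52 (SE 0.21, adjusted p = 0.0636), and 0.82 (SE 0.059, adjusted p = 1.58e-05) without SFN replicate 2. With SFN+5-FU it was -0.11 (SE 0.21, adjusted p = 0.652). HSPA8 and HSP90AA1, which both hold a heat shock element in the sequences above, therefore had different patterns over the libraries. HSPA4, an HSP110-type exchange factor for HSP70, was highest in the same 2 libraries, with 0.28 (SE 0.11, adjusted p = 0.0586) with SFN, 0.41 (SE 0.07, adjusted p = 0.00106) without SFN replicate 2 and 0.08 (SE 0.11, adjusted p = 0.557) with SFN+5-FU. HSPA8, HSPA4, HSP90AA1, EDEM1, HYOU1 and HSP90B1 were chosen for detail after their values were seen.

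The J-domain protein DNAJA1, which stimulates the HSP70 ATPase, had the largest log2 difference of FPKM + 1 among the called cytosolic heat shock genes with all libraries. HSPA8 and CHORDC1 had larger SFN values without SFN replicate 2, at 0.82 and 0.80. DNAJA1 was at 54.3, 53.6 and 59.6 FPKM in the control libraries, 91.5, 100.3 and 101 in SFN replicates 1, 2 and 3, and 105, 104 and 96.6 in the SFN+5-FU libraries. The treated libraries lay between 91.5 and 105 FPKM and the controls between 53.6 and 59.6 FPKM. Its log2 difference from control was 0.80 (SE 0.069, adjusted p = 4.49e-05) with SFN and 0.86 (SE 0.069, adjusted p = 1.86e-05) with SFN+5-FU. Without SFN replicate 2 the SFN value was 0.78. The J-domain protein DNAJB1 was not called, with -0.16 (SE 0.077, adjusted p = 0.107) with SFN and -0.004 (SE 0.077, adjusted p = 0.968) with SFN+5-FU, and fell with SFN without SFN replicate 2, by 0.25 (adjusted p = 0.00102). DNAJB4, of the same class, was at 2.73, 1.98 and 2.11 FPKM in the control libraries, 2.18, 3.97 and 2.5 in SFN replicates 1, 2 and 3, and 3.93, 4.11 and 3.59 in the SFN+5-FU libraries. SFN replicate 2 was as high as the SFN+5-FU libraries, and the other 5 were lower. It rose with SFN+5-FU by 0.58 (SE 0.16, adjusted p = 0.0102) and was not called with SFN, at 0.23 (SE 0.16, adjusted p = 0.263). The SFN+5-FU value was 0.33 and no longer called under the GC and length correction (adjusted p = 0.0577). BAG3, an HSP70 co-chaperone that binds HSPB8, gave 0.12 (SE 0.065, adjusted p = 0.15) with SFN and 0.20 (SE 0.065, adjusted p = 0.0214) with SFN+5-FU, the latter lost without control replicate 2 or 3 or SFN+5-FU replicate 1 (adjusted p of 0.0618 to 0.0794). After quantile scaling it was 0.02 (adjusted p = 0.82). HSPH1, an exchange factor for HSP70, was at 29.5 ± 2.28, 47.6 ± 2.69 and 46.04 ± 5.84 FPKM in control, SFN and SFN+5-FU (SD, n = 3 each). It rose by 0.68 with SFN (adjusted p = 0.000614) and by 0.62 with SFN+5-FU (adjusted p = 0.000594).

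The cytosolic HSP90 proteins come from 2 genes, and their mRNAs differed in pattern. HSP90AB1, the constitutive form and the cytosolic heat shock gene of highest mean FPKM over the 9 libraries, was at 417, 429.8 and 419 FPKM in the control libraries, 548, 449.6 and 517 in SFN replicates 1, 2 and 3, and 456, 474 and 443 in the SFN+5-FU libraries. All 6 treated libraries were above the controls, and SFN replicates 1 and 3 were the highest. The log2 difference was 0.25 (SE 0.076, adjusted p = 0.0201) with SFN, 0.34 (SE 0.049, adjusted p = 0.000475) without SFN replicate 2 and 0.12 (SE 0.076, adjusted p = 0.199) with SFN+5-FU, the last called in 4 alternatives, among them without SFN replicate 2 (adjusted p = 0.0368). The SFN call was lost in 7 of the 20 alternatives, among them leaving out control replicate 1 or 3 or SFN replicate 1 or 3 (adjusted p of up to 0.0666). HSP90AA1, the inducible form, was at 295, 258 and 288 FPKM in the control libraries, 374, 461 and 403 in SFN replicates 1, 2 and 3, and 458, 492 and 404 in the SFN+5-FU libraries. All treated libraries were above the controls, and SFN replicate 2 and SFN+5-FU replicates 1 and 2 were the highest. Against control, the fit gave 0.55 (SE 0.10, adjusted p = 0.00181) with SFN and 0.68 (SE 0.10, adjusted p = 0.000358) with SFN+5-FU.

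HSP90AA1 made up 39.9% ± 2.13 of the summed HSP90AA1 and HSP90AB1 FPKM in the controls, 45% ± 5.13 with SFN and 49.6% ± 1.70 with SFN+5-FU (SD, n = 3 each). In the SFN group the share was 40.6% and 43.8% in replicates 1 and 3 and 50.6% in replicate 2. The SFN+5-FU libraries, at 47.7% to 51.0%, were above the controls, at 37.5% to 41.5%, while the SFN libraries overlapped with both. The exact two-sided permutation p was 0.3 for SFN against control, 0.1 for SFN+5-FU against control and 0.3 for SFN+5-FU against SFN, where 0.1 is the smallest value 3 libraries against 3 allow. Adjusted over 24 such tests of sums and ratios, these were 0.4, 0.218 and 0.4. Pseudogenes of HSP90AA1, which can draw reads from it, summed to at most 1.5% of its FPKM in any library.

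The HSP90 co-chaperones CHORDC1, AHSA1 and STIP1 rose in both treatments. CHORDC1, whose upstream sequence above holds the run of overlapping heat shock elements, was at 3.96, 3.22 and 3.93 FPKM in the control libraries, 6.9, 6.78 and 7.41 in SFN replicates 1, 2 and 3, and 6.92, 6.9 and 6.06 in the SFN+5-FU libraries. The treated and control libraries did not overlap. Its log2 difference from control was 0.77 (SE 0.087, adjusted p = 0.000156) with SFN and 0.70 (SE 0.087, adjusted p = 0.000149) with SFN+5-FU. AHSA1, which stimulates the HSP90 ATPase, was at 37.8 ± 0.21, 57.9 ± 3.69 and 59.5 ± 3.03 FPKM in control, SFN and SFN+5-FU (SD, n = 3 each). Its log2 differences were 0.60 and 0.64 (adjusted p = 0.000131 and 5.43e-05). STIP1, which links HSP70 to HSP90, was at 75.7 ± 0.98, 98.5 ± 2.94 and 94.9 ± 2.62 FPKM and gave 0.38 and 0.32 (adjusted p = 0.000439 and 0.000594).

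**Figure D3:**
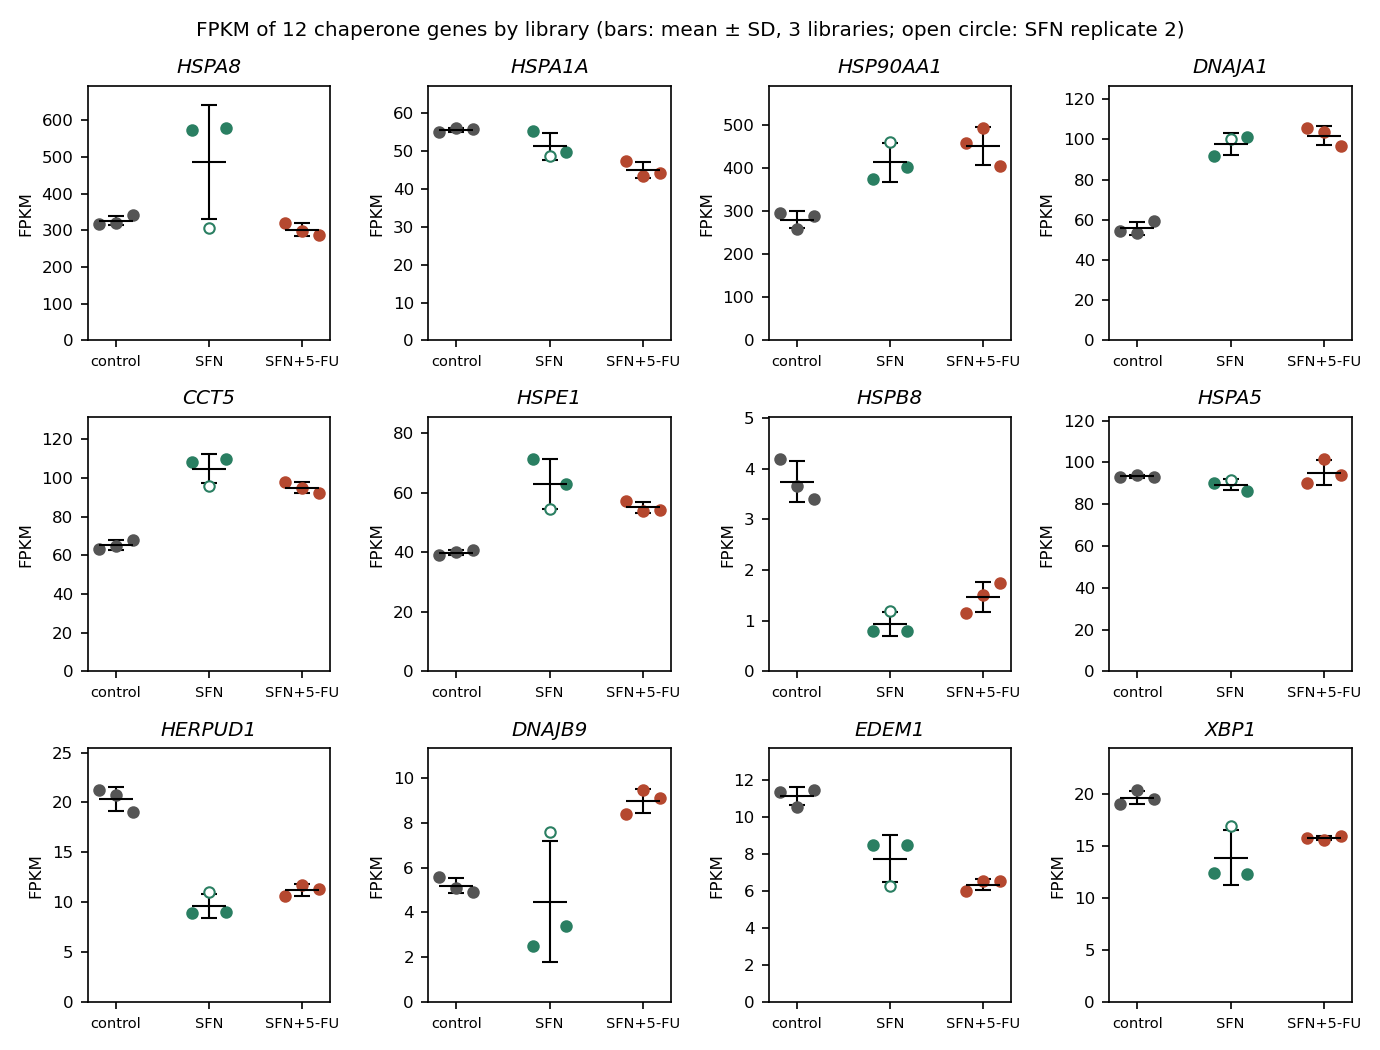
FPKM of selected chaperone genes in each library, 1 panel a gene, with a point per library, bars for the group mean ± SD (n = 3) and an open circle for SFN replicate 2. In HSPA8 and DNAJB9 the point of SFN replicate 2 lies with the SFN+5-FU libraries, while in DNAJA1 and HERPUD1 all treated libraries are on one side of the controls.

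The small heat shock proteins bind unfolded chains without ATP. HSPB8, a partner of BAG3, was at 4.18, 3.66 and 3.39 FPKM in the control libraries, 0.8, 1.2 and 0.79 in SFN replicates 1, 2 and 3, and 1.15, 1.51 and 1.75 in the SFN+5-FU libraries. Every treated library was below every control. The log2 difference was -1.30 (SE 0.12, adjusted p = 6.33e-05) with SFN and -0.95 (SE 0.12, adjusted p = 0.000176) with SFN+5-FU, the largest decrease among the chaperone genes in each comparison. At these low levels the added 1 FPKM shrinks the fold change: the group means were 3.74 ± 0.4015, 0.93 ± 0.23 and 1.47 ± 0.302 FPKM (SD, n = 3 each). HSPB1 (HSP27), the most abundant of the group, was at 179, 183 and 156 FPKM in the control libraries, 175, 224 and 136 in SFN replicates 1, 2 and 3, and 222, 201 and 203 in the SFN+5-FU libraries. SFN replicate 2 was the highest of all, SFN replicate 1 was within the controls and SFN replicate 3 below them, and the SFN+5-FU libraries were above every control. Against control, the fit gave 0.02 (SE 0.15, adjusted p = 0.912) with SFN and 0.27 (SE 0.15, adjusted p = 0.141) with SFN+5-FU, neither of them called. The increase with SFN+5-FU was called in 5 of the 20 alternatives, among them leaving out SFN replicate 2 (adjusted p = 0.0283) or 3 (adjusted p = 0.0447). The HSPB1 value with SFN changed sign and was called when libraries were weighted by their agreement with their group, at -0.31 (adjusted p = 0.00809). SFN replicate 3 held most of the SFN weight in that fit, at 3.03 against 0.419 and 0.0893 for replicates 1 and 2.

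The chaperonin TRiC is built from 8 different subunits in each ring, of which TCP1, CCT2, CCT3, CCT4, CCT5 and CCT8 are among the 46 genes. All 6 rose in both treatments. TCP1, the alpha subunit, was at 39.8, 39.7 and 42.7 FPKM in the control libraries, 60.7, 62.7 and 64.2 in SFN replicates 1, 2 and 3, and 65.6, 66.8 and 61.9 in the SFN+5-FU libraries. The treated libraries lay between 60.7 and 66.8 FPKM, above all controls. Its log2 difference from control was 0.61 (SE 0.059, adjusted p = 7.5e-05) with SFN and 0.66 (SE 0.059, adjusted p = 2.95e-05) with SFN+5-FU. CCT5 was at 63.1, 64.9 and 68.2 FPKM in the control libraries, 108, 96.1 and 109.6 in SFN replicates 1, 2 and 3, and 97.97, 94.7 and 92.2 in the SFN+5-FU libraries. It had the largest increase of the 6 with SFN, at 0.67 (SE 0.067, adjusted p = 8.93e-05), and gave 0.53 (SE 0.067, adjusted p = 0.000158) with SFN+5-FU.

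CCT4, the subunit of highest FPKM among the 6, was at 104, 106 and 104 FPKM in the control libraries, 125, 118 and 119 in SFN replicates 1, 2 and 3, and 127, 123 and 114 in the SFN+5-FU libraries. Its treated and control libraries did not overlap, but the increase was the smallest of the 6: 0.20 (SE 0.058, adjusted p = 0.0173) with SFN and 0.21 (SE 0.058, adjusted p = 0.0115) with SFN+5-FU. After correction for GC content and length these values were 0.08 and 0.02 and were not called, and the calls were also lost without control replicate 1 (SFN, adjusted p = 0.0591) and without SFN+5-FU replicate 1 (SFN+5-FU, adjusted p = 0.0532). The group means in control, SFN and SFN+5-FU were 51.5 ± 2.74, 71.8 ± 6.34 and 68.7 ± 2.005 FPKM for CCT2, 78.6 ± 3.11, 108 ± 1.49 and 109 ± 3.58 for CCT3, and 79.03 ± 1.54, 112 ± 8.06 and 106 ± 6.59 for CCT8 (SD, n = 3 each). The log2 differences were 0.47 (CCT2), 0.45 (CCT3) and 0.49 (CCT8) with SFN, and 0.41, 0.46 and 0.41 with SFN+5-FU. With SFN+5-FU, the calls of CCT2 and CCT8 were also lost when GC content and length were corrected for (adjusted p = 0.0581 and 0.122).

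With CCT6A and CCT7 added, the 8 subunit mRNAs summed to 644.8 ± 13.7 FPKM in the controls, 903.7 ± 27.0 with SFN and 889.4 ± 31.0 with SFN+5-FU (SD, n = 3 each). For this sum, each treatment against control had an exact permutation p of 0.1, or 0.218 adjusted over the 24 tests. Although the subunits enter the ring in equal number, their mRNAs were not equal per length. CCT7 held 19.5% of the sum in the controls and TCP1 6.31%. The share of CCT4 was 16.3% in the controls, 13.4% with SFN and 13.6% with SFN+5-FU, and each treated library, at 13.0% to 13.9%, was below each control, at 15.8% to 16.5%. The share of CCT6A was 15.3%, 16.8% and 18.1% in the same order of groups.

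**Figure D4:**
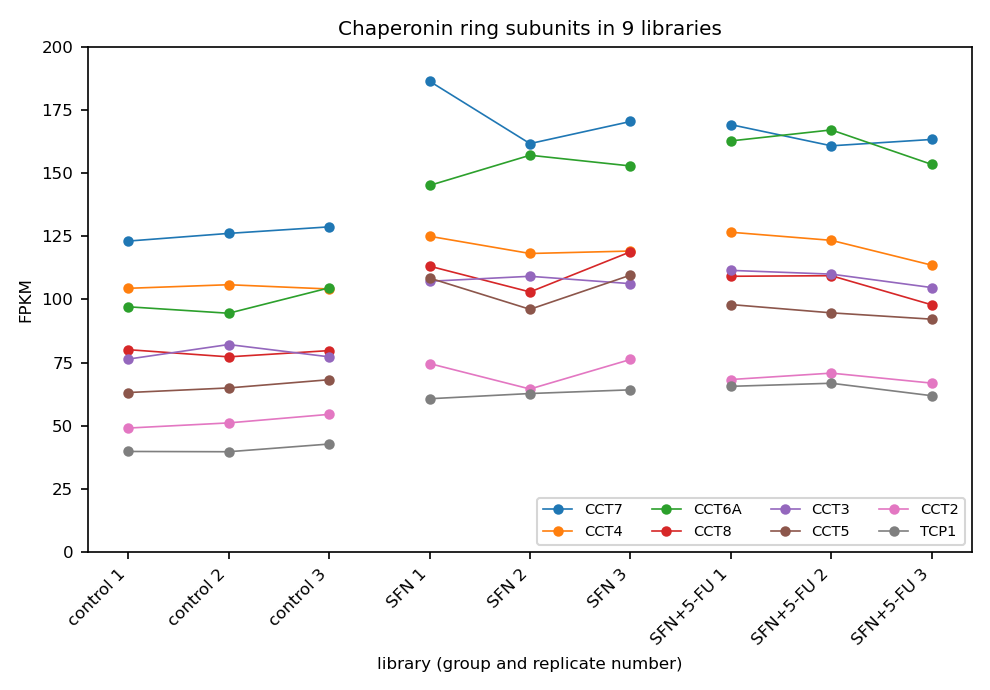
FPKM of the 8 chaperonin subunits in each of the 9 libraries, with a point per library and a line per subunit within each group. All 8 lie higher in the treated libraries than in the controls, with CCT7 at the top and TCP1 at the bottom in the controls.

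In mitochondria, HSPD1 (HSP60) and HSPE1 (HSP10) form the folding chamber and its lid, and their genes share a promoter region. HSPD1 was at 89.98, 91.1 and 90.6 FPKM in the control libraries, 145, 119.5 and 148 in SFN replicates 1, 2 and 3, and 124, 121 and 109 in the SFN+5-FU libraries. The highest were SFN replicates 1 and 3, SFN replicate 2 was near the SFN+5-FU libraries, and all 6 were above the controls. The log2 difference was 0.59 (SE 0.088, adjusted p = 0.000638) with SFN, 0.69 (SE 0.058, adjusted p = 2.96e-05) without SFN replicate 2 and 0.38 (SE 0.088, adjusted p = 0.00449) with SFN+5-FU. The SFN+5-FU call was lost under the GC and length correction (adjusted p = 0.0678). HSPE1 was at 38.9, 39.96 and 40.7 FPKM in the control libraries, 71.1, 54.5 and 62.9 in SFN replicates 1, 2 and 3, and 57.1, 53.8 and 54.2 in the SFN+5-FU libraries. SFN replicates 1 and 3 were again the highest, and all 6 treated libraries were above the controls. It gave 0.64 (SE 0.089, adjusted p = 0.000462) with SFN and 0.46 (SE 0.089, adjusted p = 0.0017) with SFN+5-FU. The mean ratio of HSPD1 to HSPE1 FPKM was 2.27 in the controls, 2.20 with SFN and 2.15 with SFN+5-FU. Its exact permutation p against control was 0.6 and 0.2, or 0.626 and 0.343 adjusted over the 24 tests. Pseudogenes summed to at most 5.77% of the FPKM of HSPD1 and 6.1% of that of HSPE1.

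HSPA9 (mortalin) was at 31.2, 30.5 and 31.4 FPKM in the control libraries, 39.5, 44.5 and 44 in SFN replicates 1, 2 and 3, and 43.98, 47.3 and 42.3 in the SFN+5-FU libraries. All treated libraries were above the controls. Against control, the fit gave 0.45 (SE 0.067, adjusted p = 0.000699) with SFN and 0.51 (SE 0.067, adjusted p = 0.000207) with SFN+5-FU. TRAP1, the mitochondrial HSP90, was at 27.1, 30.2 and 27.2 FPKM in the control libraries, 38.9, 29.6 and 35.6 in SFN replicates 1, 2 and 3, and 30.2, 28.1 and 28.4 in the SFN+5-FU libraries. SFN replicates 1 and 3 were above the other 7 libraries, among which SFN replicate 2 and the SFN+5-FU libraries overlapped with the controls. It gave 0.28 (SE 0.097, adjusted p = 0.0367) with SFN, 0.39 (SE 0.066, adjusted p = 0.00104) without SFN replicate 2 and 0.03 (SE 0.097, adjusted p = 0.766) with SFN+5-FU. Its SFN call was lost in 12 of the 20 alternatives (adjusted p of up to 0.266), among them a fit with a replicate block (adjusted p = 0.0537) and leaving out any library except control replicate 2 or SFN replicate 2. The summed FPKM of the 4 mitochondrial genes was 189.6 ± 2.29 in the controls, 277.9 ± 25.9 with SFN and 246.6 ± 11.3 with SFN+5-FU (SD, n = 3 each).

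HSPA5 (BiP), the ER HSP70 and the usual marker of the unfolded protein response, was at 92.8, 94.1 and 93.02 FPKM in the control libraries, 89.99, 91.4 and 86.4 in SFN replicates 1, 2 and 3, and 89.95, 101 and 93.8 in the SFN+5-FU libraries. The SFN libraries lay just below every control, and the SFN+5-FU libraries overlapped with them. Its log2 difference from control was -0.06 (SE 0.059, adjusted p = 0.393) with SFN and 0.02 (SE 0.059, adjusted p = 0.73) with SFN+5-FU, so no change passed the test. After quantile scaling the SFN value was -0.20 and was called (adjusted p = 0.0163). A p that misses the threshold does not show that the levels were equal. HSP90B1 (GRP94), which like HSPA5 holds the ER stress element, was at 33.7, 30.8 and 32.95 FPKM in the control libraries, 35.2, 27.5 and 36.1 in SFN replicates 1, 2 and 3, and 26.04, 28.7 and 24.03 in the SFN+5-FU libraries. SFN replicates 1 and 3 were above the controls, and SFN replicate 2 and the SFN+5-FU libraries below them. It was not called with SFN, at 0.01 (SE 0.11, adjusted p = 0.945), and fell with SFN+5-FU by 0.30 (SE 0.11, adjusted p = 0.0324). That call was lost in 5 of the 20 alternatives, with an adjusted p of up to 0.113. In 4 of them control replicate 1 or 3 or SFN+5-FU replicate 1 or 3 was left out. Without SFN replicate 2, the SFN+5-FU value of HSP90B1 had an SE of 0.066 and an adjusted p of 0.00257. The library left out was chosen with its values known. It is in neither group compared and enters only the pooled SE.

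The other ER chaperones were divided. CALR (calreticulin), a lectin chaperone and the ER gene of highest FPKM, was at 192, 199.7 and 186 FPKM in the control libraries, 249.9, 222 and 221 in SFN replicates 1, 2 and 3, and 222, 223 and 224 in the SFN+5-FU libraries. The treated libraries were all above the controls, with SFN replicate 1 the highest. It gave 0.26 (SE 0.063, adjusted p = 0.00814) with SFN and 0.21 (SE 0.063, adjusted p = 0.0153) with SFN+5-FU. The latter call was lost in 3 of the 20 alternatives. These were leaving out control replicate 3 (adjusted p = 0.0552), median-of-ratios scaling (adjusted p = 0.089) and the GC and length correction (adjusted p = 0.0505). The membrane-bound lectin chaperone CANX was at 56.7 ± 0.91, 62.1 ± 4.82 and 70.05 ± 4.45 FPKM in control, SFN and SFN+5-FU (SD, n = 3 each). It gave 0.13 (SE 0.072, adjusted p = 0.166) with SFN and 0.30 (SE 0.072, adjusted p = 0.00515) with SFN+5-FU. Of the disulfide isomerases, PDIA3, which works with both lectins, gave 0.17 with SFN and 0.28 with SFN+5-FU (adjusted p = 0.0259 and 0.00151), while PDIA4, at 68.7 ± 4.38, 56.9 ± 3.61 and 54.6 ± 2.45 FPKM in control, SFN and SFN+5-FU (SD, n = 3 each), gave -0.27 and -0.33 (adjusted p = 0.0126 and 0.00319). Pseudogene FPKM of PDIA3 reached 27.3% of that of the gene in a library, so the PDIA3 values are uncertain. The SFN calls were lost for PDIA3 without control replicate 1 or 3 (adjusted p = 0.0961 and 0.0768) and for PDIA4 without control replicate 2 (adjusted p = 0.0576). For PDIA3, quantile scaling and the GC and length correction gave 0.06 and 0.06 with SFN (adjusted p = 0.406 and 0.398) and 0.11 and 0.13 with SFN+5-FU (adjusted p = 0.105 and 0.0673), none of them called. PDIA6 was not called, at -0.05 and -0.15 (adjusted p = 0.519 and 0.0561), but the SFN+5-FU decrease was called in 7 of the 20 alternatives, among them leaving out SFN replicate 1 or 2 (adjusted p = 0.0395 and 0.00743).

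Among the ER partners of HSPA5, DNAJB11 (ERdj3) was at 11.3, 11.8 and 12.3 FPKM in the control libraries, 14.5, 16.4 and 14.9 in SFN replicates 1, 2 and 3, and 16.5, 16.5 and 16.6 in the SFN+5-FU libraries. All treated libraries were above the controls, and it rose by 0.34 (SE 0.065, adjusted p = 0.00233) with SFN and by 0.45 (SE 0.065, adjusted p = 0.000319) with SFN+5-FU. DNAJB9 (ERdj4), a J-domain protein of the unfolded protein response, was at 5.58, 5.07 and 4.93 FPKM in the control libraries, 2.5, 7.57 and 3.39 in SFN replicates 1, 2 and 3, and 8.36, 9.43 and 9.1 in the SFN+5-FU libraries. Below every control were SFN replicates 1 and 3, while SFN replicate 2 and the SFN+5-FU libraries were above every control. The log2 difference with SFN was -0.28 (SE 0.27, adjusted p = 0.4) and, without SFN replicate 2, -0.66 (SE 0.10, adjusted p = 0.000624). With SFN+5-FU it was 0.69 (SE 0.27, adjusted p = 0.0445). That call was lost in 10 of the 20 alternatives, with an adjusted p of up to 0.138. Among them were leaving out SFN replicate 3 or any control or SFN+5-FU library. SFN replicate 2 is in neither of these groups but enters the pooled SE. Without it, a choice made with its values known, the DNAJB9 value with SFN+5-FU was 0.69 (SE 0.090, adjusted p = 0.000113).

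HYOU1 (GRP170), the exchange factor of HSPA5, was at 33.2, 32.9 and 34.3 FPKM in the control libraries, 35.99, 45.9 and 31.9 in SFN replicates 1, 2 and 3, and 48.4, 46.6 and 45.7 in the SFN+5-FU libraries. SFN replicate 2 and the SFN+5-FU libraries lay between 45.7 and 48.4 FPKM, and the other 5 libraries between 31.9 and 36.0 FPKM. It gave 0.16 (SE 0.11, adjusted p = 0.259) with SFN and 0.47 (SE 0.11, adjusted p = 0.0047) with SFN+5-FU. DNAJC3, a J-domain protein of the ER lumen, was at 6.2, 5.56 and 6.11 FPKM in the control libraries, 5.61, 7.73 and 6.71 in SFN replicates 1, 2 and 3, and 8.48, 9.59 and 8.25 in the SFN+5-FU libraries. It gave 0.14 (SE 0.11, adjusted p = 0.313) with SFN and 0.49 (SE 0.11, adjusted p = 0.00302) with SFN+5-FU, and its SFN libraries overlapped with the controls. SDF2L1, CRELD2 and MANF, small ER proteins induced in the unfolded protein response, were not called in either comparison, with log2 differences of 0.15, -0.002 and 0.06 with SFN and 0.15, -0.04 and 0.11 with SFN+5-FU.

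Of the ERAD genes, HERPUD1 and EDEM1 fell and SEL1L was not called. HERPUD1, a membrane component of the HRD1 degradation complex, was at 21.2, 20.8 and 19.01 FPKM in the control libraries, 8.93, 11.02 and 9.03 in SFN replicates 1, 2 and 3, and 10.6, 11.8 and 11.4 in the SFN+5-FU libraries. The treated libraries lay between 8.93 and 11.8 FPKM and the controls between 19.0 and 21.2 FPKM. The log2 difference was -1.005 (SE 0.088, adjusted p = 4.88e-05) with SFN and -0.80 (SE 0.088, adjusted p = 8.13e-05) with SFN+5-FU. EDEM1, which directs misfolded glycoproteins to degradation, was at 11.4, 10.6 and 11.5 FPKM in the control libraries, 8.49, 6.29 and 8.5 in SFN replicates 1, 2 and 3, and 6.01, 6.55 and 6.56 in the SFN+5-FU libraries. The treated libraries were all below the controls, and EDEM1 gave -0.48 (SE 0.11, adjusted p = 0.00479) with SFN and -0.72 (SE 0.11, adjusted p = 0.000347) with SFN+5-FU. SEL1L, the adaptor of HRD1, was not called, at -0.16 with SFN and 0.02 with SFN+5-FU (adjusted p = 0.133 and 0.826). It was lower with SFN without SFN replicate 2, at -0.23 (adjusted p = 0.0224), as in 3 of the other alternatives. Under the GC and length correction its SFN+5-FU value was -0.20 (adjusted p = 0.0231).

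XBP1, the transcription factor that is activated by splicing of its mRNA and drives many of these genes, was at 19.1, 20.4 and 19.5 FPKM in the control libraries, 12.4, 17 and 12.3 in SFN replicates 1, 2 and 3, and 15.8, 15.6 and 16 in the SFN+5-FU libraries. The treated libraries were below the controls, and SFN replicates 1 and 3 were the lowest. It gave -0.48 (SE 0.11, adjusted p = 0.00539) with SFN, -0.63 (SE 0.049, adjusted p = 2.2e-05) without SFN replicate 2 and -0.30 (SE 0.11, adjusted p = 0.0344) with SFN+5-FU. The SFN+5-FU call was lost in 7 of the 20 alternatives, among them leaving out any control or SFN+5-FU library, with an adjusted p of up to 0.0981. Without SFN replicate 2, the SFN+5-FU value of XBP1 had an SE of 0.043 and an adjusted p of 0.000211. That library, left out with its values known, is in neither group compared and enters only the pooled SE. Gene-level FPKM does not separate the spliced from the unspliced mRNA. The ratio of HSPA5 to HERPUD1 FPKM was 4.599 ± 0.27 in the controls, 9.31 ± 0.92 with SFN and 8.44 ± 0.18 with SFN+5-FU (SD, n = 3 each). For this ratio, each treatment against control had an exact permutation p of 0.1, or 0.218 adjusted over the 24 tests. HSPA5 and XBP1, both with an ER stress element in the sequences above, differed in that XBP1 was called and HSPA5 was not; the difference between these genes was not tested.

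SFN+5-FU was also compared with SFN. As the sulforaphane dose of the combined group is unknown, these groups may differ in more than 5-fluorouracil. With all libraries, limma called none of the 45 chaperone genes in either direction, and 13 had an unadjusted p under 0.05. Among all 12662 genes 0% were called higher and 0.00790% lower (1 gene), and 3982 had an unadjusted p under 0.05. Without SFN replicate 2, 13 of the 45 were higher with SFN+5-FU and 12 lower, where 29.8% and 21.4% of all tested genes were. Libraries were also weighted by agreement with their group, which gave SFN replicates 1, 2 and 3 weights of 0.419, 0.0893 and 3.03. The SFN values of that fit come mostly from replicate 3. In it, 16 of the 45 were higher and 14 lower, where 33.4% and 25.3% of all tested genes were. This comparison therefore rests on how SFN replicate 2 is treated.

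Without SFN replicate 2, the decrease in HSPA8 was 0.93 (SE 0.059, adjusted p = 1.65e-05) and the increase in DNAJB9 1.34 (SE 0.10, adjusted p = 2.86e-05), the largest among the chaperone genes in each direction. The HSP90 gene HSP90AB1, its mitochondrial relative TRAP1 and the chamber genes HSPD1 and HSPE1 were lower with SFN+5-FU, at -0.22, -0.35, -0.31 and -0.28 (adjusted p = 0.0056, 0.00214, 0.00215 and 0.0047). HYOU1, DNAJC3, XBP1 and HERPUD1 were higher, at 0.46, 0.45, 0.33 and 0.30 (adjusted p = 0.000315, 0.00297, 0.000658 and 0.00496). By group, 3 of 15 cytosolic heat shock genes were higher and 5 lower. Of the 4 mitochondrial genes 0 were higher and 3 lower, and of the 18 ER genes 8 were higher and 3 lower. In the same fit, 29.8% of all tested genes were higher and 21.4% lower. Of the chaperonin subunits only CCT5 was called, and was lower. The SFN group then holds 2 libraries, chosen with their values known.

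Other genes of the same pathways, 110 in all, were listed by function, and 101 of them were tested. As background, 27.5% of all tested genes rose and 22.5% fell with SFN, and 38.3% and 28.0% with SFN+5-FU. Of 30 other cytosolic genes, mostly co-chaperones with some HSP70 proteins and the transcription factor HSF2, 16 rose and 4 fell with SFN, and 21 rose and 4 fell with SFN+5-FU. The log2 differences of DNAJC2, a ribosome-bound J-domain protein, with SFN and SFN+5-FU were 0.96 and 1.12 (adjusted p = 0.0011 and 0.000291), and DNAJA4 gave 0.82 and 1.14 (adjusted p = 0.00209 and 0.000212). Of 14 further chaperonin, prefoldin and tubulin-folding genes, 9 rose and 1 fell with SFN, and 10 rose and 1 fell with SFN+5-FU. The prefoldin subunit PFDN1, which delivers chains to the chaperonin, gave 0.67 and 0.77 (adjusted p = 4.88e-05 and 1.6e-05), and the tubulin-folding cofactor TBCD gave -0.46 and -0.79 (adjusted p = 0.00745 and 0.000254). PDCL3, which works with the chaperonin, gave 0.68 and 0.73 (adjusted p = 0.000708 and 0.000288). The median log2 difference of these 14 genes was 0.47 with SFN and 0.51 with SFN+5-FU, beside 0.05 and 0.10 over all tested genes.

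Of 17 further mitochondrial genes, 8 rose and none fell with SFN, and 12 rose and 1 fell with SFN+5-FU. GRPEL1, the exchange factor of HSPA9, gave 0.80 and 0.78 (adjusted p = 2.25e-05 and 1.49e-05), and ATF5, a transcription factor of the mitochondrial unfolded protein response, gave 1.29 and 1.64 (adjusted p = 0.000153 and 2.76e-05). PHB1 (prohibitin), a scaffold of the inner membrane, gave 0.63 and 0.71 (adjusted p = 3.55e-05 and 1.37e-05). The protease LONP1 was not called with SFN, at -0.30 (adjusted p = 0.147), and gave -0.84 with SFN+5-FU (adjusted p = 0.00153). Of 40 further ER genes, 10 rose and 7 fell with SFN, and 17 rose and 7 fell with SFN+5-FU, shares near those of all tested genes. The prolyl isomerase FKBP2 gave 0.68 and 0.98 (adjusted p = 0.00343 and 0.000293), EDEM2, a mannosidase-type protein of ERAD, gave -0.82 and -0.92 (adjusted p = 0.000341 and 0.00011), and the ER membrane protein WFS1 gave -1.22 and -1.87 (adjusted p = 0.000955 and 6.32e-05). The disulfide isomerase P4HB, the highest of these 40, was at 60.3 ± 0.51, 60.8 ± 9.91 and 72.5 ± 2.24 FPKM in control, SFN and SFN+5-FU (SD, n = 3 each) and gave -0.00027 and 0.26 (adjusted p = 0.999 and 0.0402). Of the 5 other small heat shock genes listed, none reached the filter. Without SFN replicate 2, the SFN counts were 15 higher and 5 lower for the cytosolic genes, and 9 and 1 for the chaperonin and prefoldin genes. They were 10 and 0 for the mitochondrial genes, and 12 and 10 for the ER genes. In that fit 30.0% of all tested genes were higher and 26.9% lower.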

How the data were processed

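Poly(A) RNA-seq libraries (paired-end, with a dUTP-marked second strand, per the labels' protocols) were measured in 3 groups of 3. The authors deposited FPKM per gene to 2 decimals, and the submitters' processing notes name fastp, StringTie and edgeR without versions. The aligner, the genome build, the gene annotation and the use of strand in counting were not given in the sources used here. The name table held 41002 of the 41041 identifiers, 29784 of them with a symbol. Genes with a mean of at least 1 FPKM over the 9 libraries (12662) were kept as log2(FPKM + 1), which shrinks fold changes of low genes. No further scaling was applied. One limma 3.58.1 fit (R 4.3.3) with a mean-variance trend gave 3 contrasts, two-sided p-values, 6 residual degrees of freedom and Benjamini-Hochberg adjustment within each contrast over all tested genes. The SE pools the spread of all 9 libraries. The fit was tested on simulated data. Depth is unknown, and 0.01 FPKM is the smallest value above 0.

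The chaperone genes, the lists of other pathway genes and the tests were chosen with earlier results of these data known. Library values are given for the member of highest mean FPKM and those of largest called change in each group, and for HSF1, HSPA5, HSPD1, XBP1 and TCP1. Those of CHORDC1, DNAJB4, DNAJC3, TRAP1 and the genes named as chosen later in the results were added after their values were seen. Of 110 further genes, 109 were found. Promoter windows are RefSeq's (GRCh38.p14), used for sequence and not for measurement. Alternatives changed filter, pseudocount, scaling, variance model, GC and length correction (GENCODE lengths, known for 12504 genes), replicate block and libraries included. Replicates with the same number were not taken as paired.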

Additional observations from a re-analysis of the deposited data

How the results depend on the processing

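Counts of chaperone genes called against control stayed within 1.5 times the reported value in all 20 alternatives, except the 5 genes lower with SFN. Those were 10 with libraries weighted by agreement with their group, 10 after quantile scaling and 4 to 8 when 1 library was left out. The 8 came without SFN replicate 2. Among all 12662 tested genes, 3978, 2987 and 3402 were lower with SFN under the weights, the quantile scaling and without that library. In the main fit 2855 were. With SFN+5-FU, the GC and length correction gave 19 higher and 9 lower, where 4433 and 3941 of 12504 tested genes were. The main fit gave 25 and 8, where 4847 and 3540 of 12662 genes were. With SFN+5-FU against SFN, where none was called, the library weights gave 16 higher and 14 lower, and leaving out 1 library gave 0 to 13 higher and 0 to 12 lower, the highest counts without SFN replicate 2. HSPB1 with SFN changed from 0.02 to -0.31 under library weights, and SEL1L with SFN+5-FU from 0.02 to -0.20 under the GC and length correction. The cause was not tested. With a replicate block, 20 rose and 5 fell with SFN and 25 rose and 8 fell with SFN+5-FU. Of all 12662 tested genes, 3295 rose and 2743 fell with SFN in that fit, and 4710 and 3441 with SFN+5-FU. The call of TRAP1 with SFN was the only one the replicate block changed among the 45 genes in the 3 comparisons. Of 9 same-number pairs of libraries, 1 had a correlation of deviations above 0.1 (range -0.143 to 0.107), and a library's best match in another group had its own number in 6 of 18 cases, so the numbers were not taken as pairs. Unknown depth means that values near 0.01 FPKM, such as those of CRYAB, carry no counting error here.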
